A study of Homo sapiens with 6 samples.

Results

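Broad DEK domains are the peaks of 3000 bp or more in chromatin immunoprecipitation sequencing (ChIP-seq) of the chromatin protein DEK in U937 cells, an established human myeloid leukaemia line with monocytic features. They were chosen by the deposited peak length alone, in each of the 2 DEK peak lists. The first list (DEK replicate 1) held 466 broad domains among 15017 peaks, which is 3.10% of its peaks. The second list (DEK replicate 2) held 1968 among 152779, which is 1.29%. In all, 2434 of 167796 listed peaks were broad domains.

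The series comprised 6 samples of untreated, unmodified U937 cells: 2 precipitations with an antibody to DEK, 2 with an antibody to trimethylated lysine 4 of histone H3 (H3K4me3) and 2 inputs, which are not analysed here. Cells were grown in RPMI medium with serum and crosslinked with formaldehyde, and the chromatin was sheared by sonication. The study's methods describe the DEK precipitations as independent experiments. A peak is a stretch of genome in which the caller found more sequenced fragments (tags) than in the background, with its start, end, length, summit (the position with most tags), tag count, score, fold enrichment and false discovery rate.

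DEK is an abundant nuclear protein that binds DNA, chromatin and RNA, and it is known as a histone chaperone and as a partner in an oncogenic fusion in acute myeloid leukaemia. H3K4me3 marks the start regions of active and poised genes. Long, continuous domains of a chromatin mark are often found at highly transcribed genes and at genes that define a cell type, whereas a factor bound to a short motif usually gives narrow peaks.

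Both DEK lists differed before any choice by length. The peaks held 988363 tags in replicate 1 and 4172422 in replicate 2, and the lists hold no read totals, while the study's methods give only a minimum number of reads for all samples, so the depth of each library is not known here. The caller's false discovery rate was 100% for every broad domain of replicate 1 and between 0.740% and 16.7% for those of replicate 2. The score is 10 times the negative log10 of the caller's p-value, and its median over the broad domains was 112 in replicate 1 and 346 in replicate 2. Tag levels were therefore ranked only within a list. Each list came from 1 precipitation, so no value below has a replicate error, and the 95% Wilson intervals given with shares cover counting error only.

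The DNA under the summits of a few domains is shown first, because these windows make visible how unlike the sequences are that the broad domains span. Each window is 151 bp long, centred on the deposited summit, and is the plus strand of GRCh37 (hg19) written 5′ to 3′ in lower case with CpG dinucleotides in capitals. The first 4 lie in the 3 longest intervals that were broad in both lists and carried H3K4me3 (the MIR23AHG exon at chr19:13946594-13946744, the ZC3H12A intron at chr1:37943000-37943150 for replicate 1 and the ZC3H12A exon at chr1:37941167-37941317 for replicate 2, and a DOT1L intron at chr19:2168385-2168535). The fifth is at chr20:23067699-23067849, outside annotated genes and beside CD93. The last 2 are at the summits of the longest domain of each list on an assembled chromosome, at chr3:197830006-197830156 for replicate 1 and at chr19:36773524-36773674 for replicate 2.
MIR23AHG, replicate 1 summit: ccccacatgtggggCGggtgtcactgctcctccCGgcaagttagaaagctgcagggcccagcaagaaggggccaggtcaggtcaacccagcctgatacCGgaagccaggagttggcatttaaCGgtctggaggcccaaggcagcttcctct
ZC3H12A, replicate 1 summit: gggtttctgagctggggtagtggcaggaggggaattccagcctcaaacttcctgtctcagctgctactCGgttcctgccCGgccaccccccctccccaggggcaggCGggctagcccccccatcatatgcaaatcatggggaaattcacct
ZC3H12A, replicate 2 summit: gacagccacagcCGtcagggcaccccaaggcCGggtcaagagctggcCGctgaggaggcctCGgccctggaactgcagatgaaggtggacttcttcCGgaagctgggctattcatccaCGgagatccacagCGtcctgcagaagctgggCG
DOT1L, replicate 1 summit: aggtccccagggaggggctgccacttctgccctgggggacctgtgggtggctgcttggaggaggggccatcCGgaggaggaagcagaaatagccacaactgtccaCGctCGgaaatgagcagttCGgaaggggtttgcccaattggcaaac
Beside CD93, replicate 1 summit: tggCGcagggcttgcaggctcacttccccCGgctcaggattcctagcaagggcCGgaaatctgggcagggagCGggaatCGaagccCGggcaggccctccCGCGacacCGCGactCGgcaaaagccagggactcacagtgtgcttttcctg
Longest domain of replicate 1, chromosome 3: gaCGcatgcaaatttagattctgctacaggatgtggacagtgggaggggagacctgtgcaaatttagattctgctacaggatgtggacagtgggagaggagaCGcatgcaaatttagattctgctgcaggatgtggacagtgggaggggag
Longest domain of replicate 2, chromosome 19: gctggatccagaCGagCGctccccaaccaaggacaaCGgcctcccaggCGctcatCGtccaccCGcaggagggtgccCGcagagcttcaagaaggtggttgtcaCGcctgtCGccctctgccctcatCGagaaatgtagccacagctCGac

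The window beside CD93 held 11 CpGs and the one in the longest replicate 2 domain also held 11. That of the longest replicate 1 domain held 2. In the last of these the sequence was a tandem repeat, since 91.1% of its bases matched the base 50 bp further on. At their best shift the windows of MIR23AHG, ZC3H12A, DOT1L and CD93 matched themselves at 34.1% to 39.2% of bases.

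Broad domains were not only longer but held more tags for their length than other peaks of their list. In replicate 1 the median length was 3700 bp (quartiles 3286 and 4506 bp, range 3002 to 9023 bp) and the median tag count was 241. Their tags per kb, the tag count divided by the length, had a median of 62.5 (quartiles 53.1 and 74.4, range 39.6 to 936), beside a median of 45.3 over all peaks of the list. In replicate 2 the median length was 3779 bp (quartiles 3311 and 4710 bp, range 3000 to 20999 bp) and the median tag count was 147. There the median was 36.9 tags per kb (quartiles 32.8 and 42.7, range 24.7 to 941), beside 28.2 over all peaks. Length and tags come from the same peak calls, so these values describe the choice by length and carry no test.

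Tag density hardly followed length within the replicate 1 domains. Spearman's rho between length and tags per kb was 0.0879 over the 466 domains of replicate 1 and 0.271 over the 1968 of replicate 2, beside 0.474 and 0.183 over all peaks of those lists. These are correlations across peaks of 1 library each, and tags per kb has the length as its denominator. The median broad domain stood at percentile 83.2 of tags per kb in replicate 1 and at percentile 87.6 in replicate 2. Broad domains made up 10.4% of the peak bases and 13.5% of the peak tags of replicate 1, and 6.34% and 8.99% in replicate 2.

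**Figure D1:**
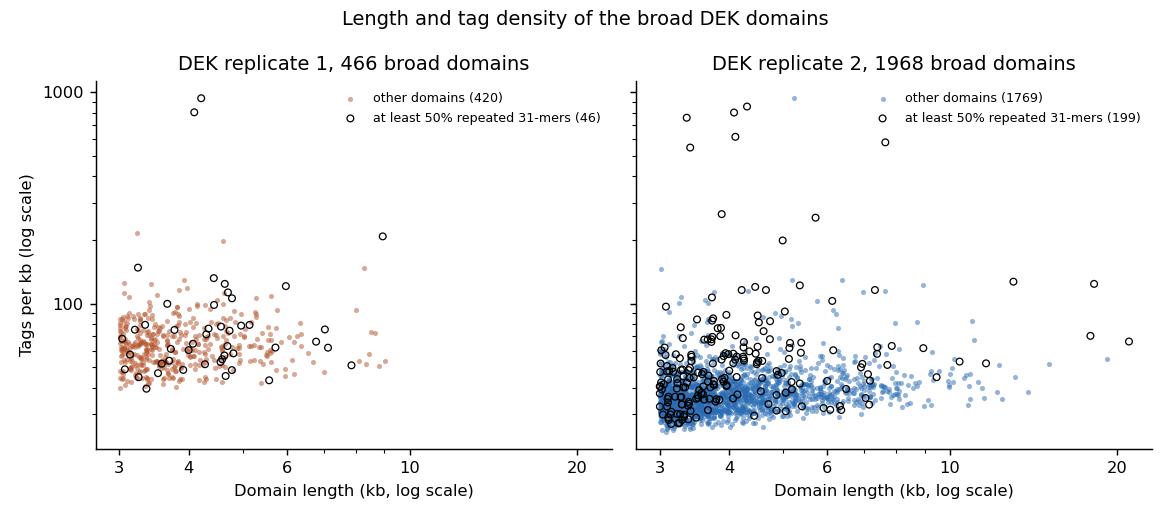
Length in kb and tags per kb of each broad domain, both on log scales, with DEK replicate 1 on the left and DEK replicate 2 on the right; open black circles are domains in which at least 50% of the 31-mers occur elsewhere in the reference. Most domains lie near the medians of 62.5 tags per kb in replicate 1 and 36.9 in replicate 2, and the few above 500 tags per kb include the domains of contig gl000220.

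The length minimum did not fall at a break in the values. In replicate 1 the shortest domain inside was 3002 bp with 78.9 tags per kb, and the longest peak outside was 2999 bp with 84.0. The 53 peaks up to 100 bp shorter than the minimum had a median of 62.8 tags per kb, and the 53 domains up to 100 bp above it a median of 62.5. In replicate 2 the shortest domain was 3000 bp with 27.7 tags per kb, the 3 longest peaks outside were 2999 bp with 28.3 to 40.7, and the medians on either side of the minimum were 35.2 (203 peaks) and 34.8 (182 peaks).

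Most broad domains of replicate 1 were touched by a replicate 2 peak, but few were broad in both lists. Of the 466, 307 (65.9%, interval 61.5 to 70.0) shared at least 1 base with a peak of the other list, where 27.4% of all replicate 1 peaks did. Of the 1968 in replicate 2, 163 (8.28%, 7.14 to 9.58) did, where 2.90% of all replicate 2 peaks did. A long interval meets another more easily, and by bases the gap was smaller: 35.7% of broad-domain bases against 21.0% of all peak bases in replicate 1, and 4.62% against 2.85% in replicate 2. Where at least 50% of the domain had to be covered, the shares were 32.4% and 4.88%. Among peaks with a score of at least 100 in both lists they were 40.5% and 3.38%.

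A single long domain of replicate 1 was often a shorter or broken one in replicate 2. Most domains of replicate 2 met no replicate 1 peak at all. Of the 307 replicate 1 domains that were met, 75 met a broad domain of replicate 2 and 232 met only shorter peaks, with a median of 1696 bp for the longest partner. As many as 5 replicate 2 peaks fell in 1 replicate 1 domain, and 79 domains met 2 of them. In replicate 2, 78 domains met a broad domain of replicate 1, 85 met only shorter peaks and 1805 met none. The share met by the other list was 62.2%, 69.0% and 76.1% for replicate 1 domains of 3 to 4, 4 to 5 and at least 5 kb, and 7.38%, 10.6% and 8.29% for those classes in replicate 2.

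**Figure D2:**
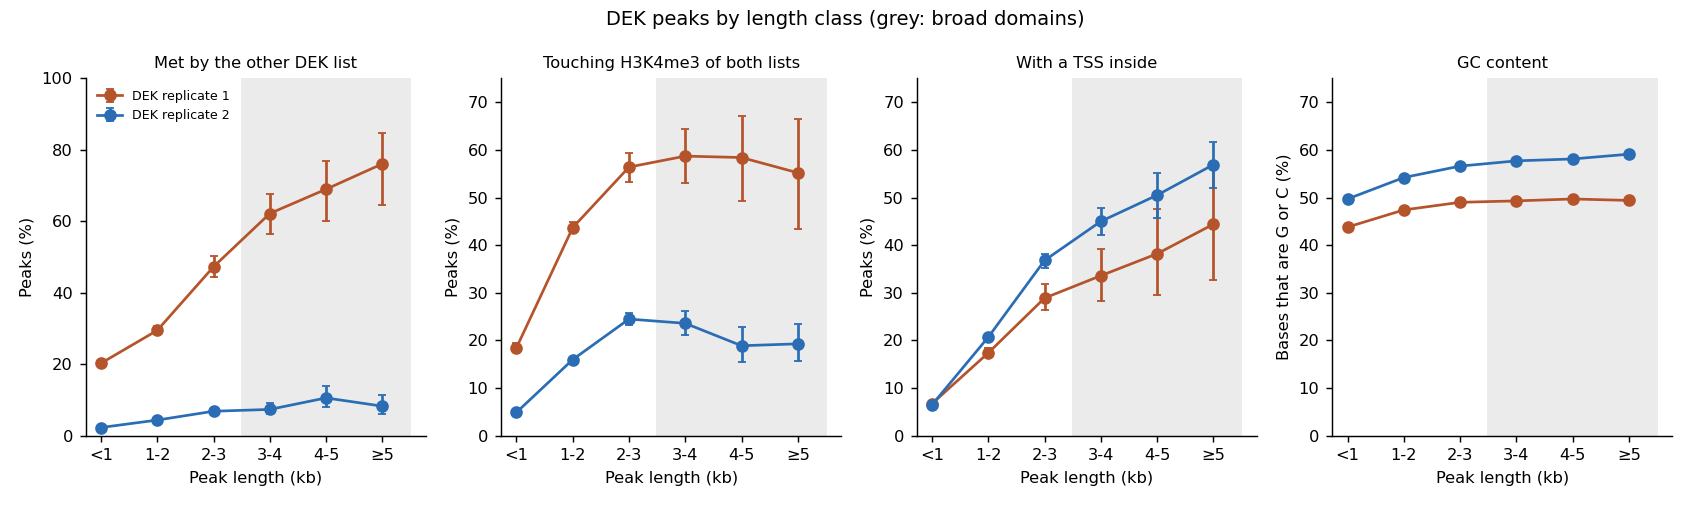
Shares of DEK peaks by length class in kb, with the broad classes shaded grey and bars showing 95% Wilson intervals (the GC panel has none): peaks met by the other DEK list, touching H3K4me3 of both lists, with a transcription start site (TSS) inside, and the pooled GC content. The share with a TSS is 33.6%, 38.2% and 44.4% in the 3 broad classes of replicate 1 and 45.0%, 50.5% and 56.9% in those of replicate 2.

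There were 80 intervals in which a broad domain of one list overlapped one of the other, formed by 75 domains of replicate 1 and 78 of replicate 2. The shared stretch had a median of 3240 bp and ranged from 1 to 5699 bp, and in 64 of the 80 (80%, interval 70.0 to 87.3) it covered at least 50% of both domains. Lengths did not run in parallel, with a Spearman's rho of 0.0113 over the 77 intervals on chromosomes 1 to 22, X and Y, and 0.280 for tags per kb. The summits lay within 200 bp of each other in 26 intervals (32.5%) and over 1000 bp apart in 31 (38.8%). In tags per kb these domains ranked high in both lists, at a median percentile of 90.5 in replicate 1 and 96.9 in replicate 2. Over all broad domains the median percentile was already 83.2 and 87.6.

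Domains that were broad in both lists differed from those broad in one list along different lines in each replicate. The 75 of replicate 1 had a median of 16.0 coding genes per Mb and a pooled GC content of 55.4%, where the 391 broad in replicate 1 alone had 8.0 and 48.2%. H3K4me3 of both lists touched 58.7% and 58.1% of them. In replicate 2 gene density was the same, 16.0 in the 78 shared and in the 1890 others, and GC content was 57.0% and 58.3%, whereas H3K4me3 touched 55.1% of the shared and 20.3% of the others. A coding TSS lay in 37.5% of the shared and 20.3% of the other replicate 1 domains, and in 37.3% and 38.7% in replicate 2. Median tags per kb were 71.6 and 61.9 in replicate 1 and 45.5 and 36.6 in replicate 2.

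**Figure D3:**
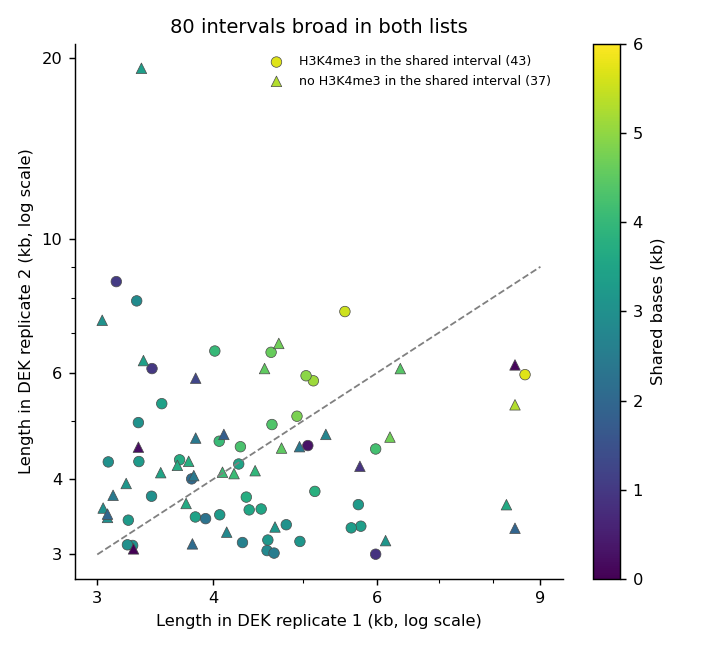
Length in kb of the 2 overlapping broad domains of each of the 80 shared intervals, replicate 1 on the horizontal and replicate 2 on the vertical log axis, coloured by the shared bases in kb; circles carry H3K4me3 of both lists in the shared interval, triangles do not, and the dashed line marks equal lengths. Points scatter to both sides of the line, and the domain was longer in replicate 1 in 41 of 80 intervals.

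The longest shared interval covered 5699 bp of MIR23AHG at chr19:13945848-13951546, the host of the microRNAs miR-23a and miR-27a, whose genes MIR27A and MIR23A lay inside. It held 72.7 tags per kb in replicate 1 and 48.0 in replicate 2, its summits were 27 bp apart, and H3K4me3 covered 100% of it. Next came ZC3H12A at chr1:37940340-37945882, a ribonuclease gene that restrains inflammatory messenger RNAs, with 56.8 and 41.0 tags per kb and H3K4me3 over 100%. Its summits were 1833 bp apart, one in an intron and the other in an exon.

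The 20 longest shared intervals held genes of varied function. WIPI2, which acts in autophagosome formation, had 58.0 and 45.2 tags per kb in replicates 1 and 2 over chr7:5269696-5275008, with no H3K4me3. DOT1L, the methyltransferase of lysine 79 of histone H3, had 63.2 and 36.6 over chr19:2164593-2169718, and H3K4me3 covered 82.3% of that stretch. CD93, a surface glycoprotein of monocytes and endothelium, had 70.5 and 43.1 over chr20:23064389-23069339, 88.0% of it with H3K4me3.

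LYL1, a basic helix-loop-helix factor of blood progenitors, had 112 tags per kb in replicate 1 and 43.8 in replicate 2 at chr19:13212982-13217321, with summits 3 bp apart. UBA7, the enzyme that activates the interferon-induced modifier ISG15, had 82.2 and 39.5 at chr3:49841554-49845568. H3K4me3 covered nearly all of the shared bases of both, at 97.5% for LYL1 and 94.9% for UBA7. SH3TC1 had 100 and 45.1 tags per kb with 47.0% of bases in H3K4me3, and the amino acid transporter family gene SLC38A10 had 61.4 and 36.6 with 41.3%.

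Several of these 20 had no H3K4me3 of both lists at all. Besides WIPI2, they included the splicing-related RNA-binding protein gene HNRNPM with the neighbouring PRAM1 (72.7 and 53.2 tags per kb), PIGX of glycosylphosphatidylinositol anchor synthesis (46.3 and 48.3), the tyrosine kinase gene TNK2 (50.9 and 40.6), the pseudogene FAM90A12P on chromosome 8 (74.5 and 62.6, with 89.0% of its 31-mers repeated elsewhere in the reference) and ENSG00000285163 (72.2 and 45.2). The last lay at chr16:85962744-85967160, past the annotated end of IRF8, a transcription factor of monocyte development, at base 85956212. PNLDC1 had 60.6 and 35.3 tags per kb with 64.6% of bases in H3K4me3. Outside genes, an interval on chromosome 16 near ENSG00000282973 had 51.7 and 81.5 tags per kb, H3K4me3 over 30.2% and 81.4% of its 31-mers repeated.

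The remaining 4 of the 20 lay in repeated DNA too. A pair of them lay next to copies of NCF1, which encodes a subunit of the phagocyte NADPH oxidase: 5339 bp from NCF1B (121 and 51.7 tags per kb) and 5919 bp from NCF1 itself (132 and 56.2), both on chromosome 7. H3K4me3 of both lists covered 66.8% of the first and none of the second. In these domains 98.4% and 93.8% of the 31-mers of replicate 1 occur elsewhere in the reference, and how reads were placed among the copies was not tested. Near NCF1C a replicate 1 domain of 3240 bp had 148 tags per kb, 95.9% repeated. The other pair lay on the unplaced contig gl000220 and had the most tags per kb of replicate 1, 936 and 803, beside 801 and 615 in replicate 2, with no H3K4me3, 100% of their 31-mers repeated and fold enrichments of only 2.15 and 2.76 in replicate 1.

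Among genes, replicate 1 domains held the starts of 121 protein-coding genes, which is 0.600% of the 20163 annotated, and replicate 2 domains those of 706, which is 3.50%. A start here is the TSS of any annotated GENCODE transcript of the gene, so it can lie well inside the gene. Starts of 33 coding genes lay in broad domains of both lists. They included JUNB, a subunit of the AP-1 factor, ICAM1, an adhesion molecule of leukocytes and endothelium, CSK, the kinase that holds Src-family kinases inactive, and GADD45B, a stress-response gene. Also among them were OAZ1, which regulates polyamine levels, RPS6KA1, a kinase downstream of ERK, GRK2, a kinase of G protein-coupled receptors, and the histone genes H2AC19, H3C14 and H3C15.

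By domain, 165 of the 456 replicate 1 domains on chromosomes 1 to 22, X and Y held a TSS (36.2%, interval 31.9 to 40.7), where 13.6% of all its peaks did. In replicate 2 it was 947 of 1945 (48.7%, 46.5 to 50.9), where 10.5% of all its peaks did. A long peak holds a TSS more easily, and per 10 kb the broad domains of replicate 1 held fewer than all its peaks, 2.94 TSSs against 3.98, while those of replicate 2 held more, 4.02 against 3.63. Counting only coding genes, 105 domains (23%) and 751 (38.6%) held a TSS. Exons and promoters (the 2000 bp before a TSS) took a larger part of the bases than over all peaks, above all in replicate 2. There exons made up 26.2% of broad-domain bases against 13.6% and promoters 29.2% against 19%, while in replicate 1 these were 13.5% against 10.4% and 21.3% against 16.8%.

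**Figure D4:**
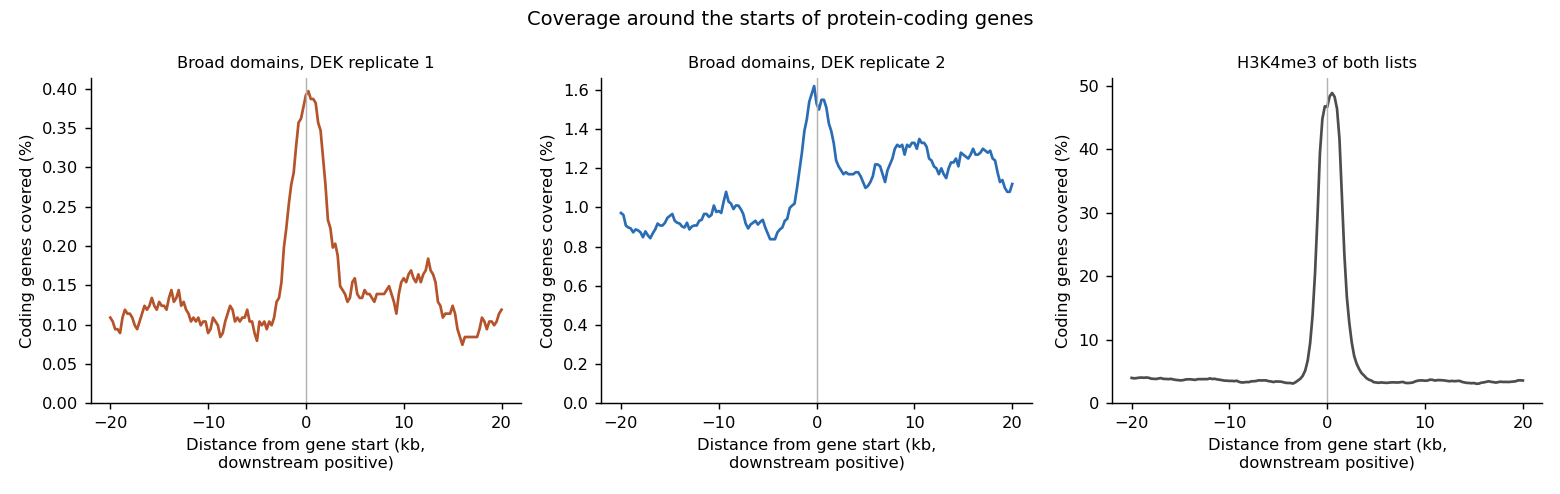
Percent of the annotated 5′ ends of 20163 protein-coding genes covered at each distance in kb (negative upstream, positive downstream) by broad domains of DEK replicate 1, by broad domains of DEK replicate 2 and by H3K4me3 of both lists; the vertical scales differ. Replicate 1 domains cover 0.397% at 250 bp downstream and 0.109% at 20000 bp upstream, replicate 2 domains 1.62% at 250 bp upstream and 0.972% at 20000 bp upstream, and H3K4me3 48.9% at 500 bp downstream. At 10000 bp downstream replicate 2 domains still cover 1.33%.

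Coverage by broad domains rose to its highest near the 5′ ends of coding genes in both lists, as the plot of coverage by distance shows. Peaks of all lengths had such a rise as well, from 0.803% at 20000 bp upstream to 4.39% at the 5′ end in replicate 1 and from 10.1% to 28% in replicate 2. At those positions the broad domains covered 0.109% and 0.392% in replicate 1 and 0.972% and 1.53% in replicate 2. The rise of the replicate 2 domains above the downstream flank was small. At 10000 bp downstream they covered 1.33%, where peaks of all lengths in that list covered 11.0%. Replicate 1 domains covered 0.159% there, and all peaks of replicate 1 covered 1.01%. In replicate 1, 50 domains held the annotated 5′ end of exactly 1 coding gene, and 32 of them (64.0%, interval 50.1 to 75.9) reached further downstream than upstream of it, with medians of 2020 and 1655 bp. In replicate 2, 101 of 207 such domains did (48.8%, 42.1 to 55.6), with medians of 1902 and 1908 bp. The whole gene lay inside the domain for 10 of the 50 and 26 of the 207.

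Several coding genes started in 1 domain at a few places. The most in replicate 1 was 4, at chr1:149856095-149860600, where the histone genes H2AC20, H2AC21 and H2BC21 and their neighbour BOLA1 started in 4506 bp with 80.6 tags per kb and H3K4me3 over 100%. A further 3 domains held 3 starts each: OAZ1, JSRP1 and ENSG00000273734 on chromosome 19 (67.0 tags per kb), ALG3, EEF1AKMT4 and EEF1AKMT4-ECE2 on chromosome 3 (67.9), and H3C12, H2AC17 and H2BC17 on chromosome 6 (70.0). The next, with the heat shock co-chaperone gene DNAJB1 and TECR, held 66.2.

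In replicate 2, 8 domains held 3 coding starts and none held more. The longest of these ran over PPAN, P2RY11 and the translation initiation factor gene EIF3G at chr19:10218321-10229362, with 67.3 tags per kb and a score of 3100, the highest in the list. NUDT1 with MRM2 and ENSG00000286192 had 42.6 tags per kb, TSSK6 with NDUFA13 and ENSG00000258674 had 42.2, and C11orf98 with CSKMT and ENSG00000255432 had 47.4.

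The histone genes were the list most often held by replicate 1 domains. Histone genes are short, lie in clusters and are transcribed strongly in S phase. Of 73 in the list, 18 (24.7%) had their TSS in a replicate 1 domain, beside 0.600% of all coding genes, although neighbours shared domains and the 20 genes touched lay in only 9. All 9 touched H3K4me3 of both lists and met a replicate 2 peak, and they held 70.0 to 98.3 tags per kb with a median of 84.4. The highest was the domain of H1-4, a linker histone gene, at chr6:26155673-26159943, with 98.3 tags per kb. The one over H2AC12 and H2BC12 had 90.4, that over H2AC11 and H2BC11 had 89.8, that of H4C8 had 85.8, and that over H3C2 and H2AC4 had 84.4.

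In replicate 2, 5 of the 73 histone genes (6.85%) had their TSS in a broad domain, beside 3.50% of all coding genes, and those lay in 3 domains. H2AC19 with H3C15 was broad in both lists, with 79.3 tags per kb in replicate 1 and 76.5 in replicate 2. H3C14 was broad in both too, with 76.2 and 69.6. In the shared replicate 1 domains of these genes 97.4% and 92.6% of the 31-mers were repeated. How reads were placed among the copies of this cluster was not tested. The third held H3C8 and H2BC10, with 32.7 tags per kb, and no replicate 1 peak met it.

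Ribosomal protein genes, whose products make up the ribosome and which every cell transcribes, had few starts in broad domains. None of 79 had a TSS in a replicate 1 domain, beside 0.600% of all coding genes, so that count is near the background, and domains touched only RPS19 (44.7 tags per kb) and RPS9 (67.2). In replicate 2, 6 of 79 (7.59%) had one, beside 3.50% of all coding genes, a difference that rests on few genes. Among them were RPL18 (47.4), RPL3 (44.3), RPL36 (61.2), RPS15 (54.7) and RPS28 (31.6). The domains of RPL18, RPL3 and RPL36 did not reach the annotated 5′ end of the gene. H3K4me3 of both lists covered 4.13%, 0% and 36.3% of them. The 11 domains touching ribosomal protein genes had a median of 45.4 tags per kb, and 1 of them, at RPS19, was met by replicate 1.

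Of 28 myeloid transcription factors, 3 (10.7%) had a TSS in a replicate 1 domain and 5 (17.9%) in a replicate 2 domain, beside 0.600% and 3.50% of all coding genes, with LYL1 in both. In replicate 1 these were LYL1, RUNX1 and MEIS1. RUNX1, a core factor of blood development, had 64.5 tags per kb in a domain within the gene. MEIS1, a homeobox partner of HOX proteins, had 42.5, also in a domain within the gene. FLI1, an ETS factor, was touched by a pair of domains within the gene with 71.9 and 44.8. All 5 replicate 1 domains at this list touched H3K4me3 of both lists, and 3 of them met a replicate 2 peak. That of RUNX1 and the denser one of FLI1 met none.

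In replicate 2 the others were GFI1, EGR1, HOXA9 and IRF8. GFI1, a transcriptional repressor that acts in granulocyte development, had 48.7 tags per kb. EGR1, an early growth response factor, had 50.6. HOXA9, a homeobox gene often active in myeloid leukaemia, had 41.9, and IRF8 had 44.8. The domains of GFI1 and HOXA9 lay within the gene. The IRF8 domain at chr16:85947294-85951151 lay within the gene and had no H3K4me3 of both lists. Its fold enrichment was 2.86, and no replicate 1 peak met it. The study, which used peaks found in both experiments, reported IRF8 as not bound by DEK, and its PCR found no enrichment there. Which part of the gene the PCR covered is not given. CEBPA, a factor of granulocyte and monocyte fate, was covered over 66.1% of its length by a domain with 50.4 tags per kb, without its start. Of the 6 replicate 2 domains at this list, 1, at LYL1, was met by a replicate 1 peak.

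The AP-1 and immediate early genes, which are transcribed rapidly after a stimulus, had 3 of 14 starts (21.4%) in the broad domains of each list, beside the same background shares. JUNB was in both, with 89.8 tags per kb in replicate 1 and 46.6 in replicate 2, and both domains covered the whole gene with H3K4me3 over 100%. ZFP36 (51.7) and ZFP36L2 (67.4), which encode RNA-binding proteins that promote decay of AU-rich messenger RNAs, were in replicate 1 domains. A second replicate 1 domain with 82.2 tags per kb touched the other end of ZFP36L2. JUN (46.4) and IER2 (48.1) were in replicate 2 domains, and neither of those was met by a replicate 1 peak.

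Of 30 monocyte and granulocyte genes, 2 (6.67%) had a TSS in a replicate 2 domain and 0 in a replicate 1 domain, beside 3.50% and 0.600% of all coding genes, so these counts are near the background. ITGB2, the integrin chain shared by leukocyte adhesion receptors, carried 6 broad domains along its gene in replicate 2, with 29.4 to 45.1 tags per kb, of which 4 held a TSS of one of its transcripts. In replicate 1 it had a single domain, elsewhere in the gene, with 62.6 tags per kb. AZU1, a protein of granulocyte granules, had 40.4 in replicate 2. The starts of the 19 markers of other blood lineages lay in no broad domain of either list. Beside 0.600% of all coding genes in replicate 1 and 3.50% in replicate 2, that count too is near the background. It is a count of peaks and says nothing of expression.

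The other lists gave at most 2 gene starts each in either replicate, beside the same background shares. Of 22 chromatin and histone chaperone genes, CHAF1A, a subunit of chromatin assembly factor 1, and SMARCA4, an ATPase of the SWI/SNF remodellers, had starts in replicate 2 domains, and none did in replicate 1. SMARCA4 carried 6 domains. CHAF1A carried one of 3839 bp with 35.7 tags per kb and was touched over 8.76% of its length by one of 13104 bp with 44.9, mostly over UBXN6. No domain at SMARCA4 or CHAF1A was met by replicate 1 or carried H3K4me3 of both lists. None reached the annotated 5′ end of either gene, so the starts held were of transcripts that begin inside it. Among 16 survival and cell cycle genes, replicate 1 had PIM1, a kinase (61.1), and replicate 2 had CCND1, cyclin D1 (29.5). The CCND1 domain lay within the gene. Of 18 RNA-binding and splicing genes TRA2B, a splicing factor, had 97.7 tags per kb in replicate 1. Of 13 abundant noncoding RNA genes in the annotation, NEAT1 was touched in replicate 2 (32.9) and no start was held.

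The longest domains of replicate 1 were mostly without coding genes. The longest of all was 9023 bp on the unplaced contig gl000232, with 53.5 tags per kb. The next, at chr3:197824650-197833587, was the tandem repeat shown above, with 1861 tags over 8938 bp (208 tags per kb), a score of 3100, a fold enrichment of 25.1 and 78.4% of its 31-mers repeated. H3K4me3 of both lists covered 99.1% of it, and replicate 2 peaks covered 6.37%. Then came a domain of 8817 bp near LINC02036 (50.6 tags per kb), MIR23AHG with 8663 bp, one of 8516 bp near COX6A1P2 (73.5) and WIPI2 with 8450 bp.

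The remaining 4 of the 10 longest in replicate 1 were a domain on an unplaced piece of chromosome 17 (8338 bp, 51.6 tags per kb), one over DUX4L50 and MIR4477B on chromosome 9 (8273 bp, 147), one on chromosome 12 that no replicate 2 peak met (8101 bp, 53.5) and one in LINC01968 (8013 bp, 93.5). By tags per kb, SCAF11 (215), a splicing-related gene, and ARID2 (198), a SWI/SNF subunit, both on chromosome 12, were the highest at coding genes. Each of these domains held the gene's start, with H3K4me3 over 100%. MYEOV (129) and SLC38A1 (125) were also in the first 10. Fewest were in LERFS and ADGRF5P1 (39.6), between genes on chromosome 18 (39.9), in PRKCQ (40.3), in RUBCN (40.8) and in CMIP (41.3).

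In replicate 2 the longest domains lay over coding genes or repeated loci. The longest ran over 20999 bp of LINC00665 at chr19:36761581-36782579 with 66.2 tags per kb, and the next peak of that locus, of 17898 bp, began within 100 bp of its end; in each of them 98.5% of the 31-mers were repeated and no replicate 1 peak or H3K4me3 lay there. The second longest covered SLC16A3, a lactate transporter, and CSNK1D, a casein kinase, at chr17:80190807-80210008 with 19202 bp and 54.9 tags per kb, and 2.22% of its 31-mers were repeated. ACTB, which encodes beta-actin, lay with its start in a domain of 15044 bp with 51.8 tags per kb, 45.3% of it in H3K4me3.

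Also among the 10 longest in replicate 2 were MSANTD1 and HTT, the huntingtin gene (13792 bp, 38.1 tags per kb), UBXN6 and CHAF1A (13104 bp, 44.9), DNM1P47 (13006 bp, 127, with 85.1% repeated), DOT1L at a second place in the gene (12389 bp, 35.3), NELFA, a subunit of the negative elongation factor (12244 bp, 51.5), and an unplaced piece of chromosome 4 (18171 bp, 124). None of these 6 was met by replicate 1 or carried H3K4me3 of both lists.

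The most tags per kb in replicate 2 were on chromosome 8 (941, between genes) and chromosome 10 (855, between genes), and then in 5 domains of gl000220 (547 to 801). REXO1L11P on chromosome 8 (265), the contig gl000214 (255) and GUSBP18 (199) completed the first 10, each with at least 80% of its 31-mers repeated. Fewest were at CLDN5, a tight junction gene (24.7), and in GSE1 (25.2), C7orf50 (25.4), GRK5 (25.5) and EVL (25.6).

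H3K4me3 was found at most broad domains of replicate 1 and at a minority of those of replicate 2. Of the 466 in replicate 1, 271 (58.2%, interval 53.6 to 62.5) shared a base with H3K4me3 of both lists, where 32.8% of all its peaks did. Of the 1968 in replicate 2, 426 (21.6%, 19.9 to 23.5) did, where 7.74% of all its peaks did. By bases it was 42.5% against 34.9% in replicate 1 and 10.9% against 8.42% in replicate 2. H3K4me3 of both lists took 1.67% of the genome.

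Among the broad domains, H3K4me3 did not become more frequent with length. In replicate 1 the share was 58.7%, 58.4% and 55.2% in the classes of 3 to 4, 4 to 5 and at least 5 kb, and in replicate 2 it was 23.6%, 18.9% and 19.3%. Peaks of 2 to 3 kb, just under the minimum, were at 56.4% and 24.5%. In replicate 2 the share of bases in H3K4me3 was lower in each longer class, with 14.3%, 9.81% and 7.0%.

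Tags were denser in domains with H3K4me3. In replicate 1 the median was 67.9 tags per kb in the 270 with it on chromosomes 1 to 22, X and Y and 55.2 in the 186 without, and in replicate 2 it was 38.6 in 423 and 36.3 in 1522. A TSS lay in 47.0% of replicate 1 domains with H3K4me3 and in 20.4% of those without, and in replicate 2 in 73.8% and 41.7%. The share met by the other list was 69.6% with and 60.8% without H3K4me3 in replicate 1, and 18.9% and 5.19% in replicate 2. In replicate 1, 148 domains (32.5%) had neither a TSS nor H3K4me3, and in replicate 2 it was 887 (45.6%).

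Replicate 2 domains with a TSS and without H3K4me3 numbered 635 (32.6%), more than the 312 (16.0%) with both. In replicate 1 these were 38 (8.33%) and 127 (27.9%). Seen from the mark, 3731 intervals of H3K4me3 shared by both lists were at least 3000 bp long, and a broad DEK domain met 144 of them (3.86%) in replicate 1 and 167 (4.48%) in replicate 2. DEK peaks of any length met 24% and 70.6% of these, so most broad H3K4me3 intervals with DEK had it as peaks under the minimum.

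Broad domains were richer in GC than all peaks of their list and lay in more gene-dense surroundings. The median number of coding gene 5′ ends in the 1 Mb window around the middle of a domain was 9.0 in replicate 1 (quartiles 5.0 and 17.0), beside 6.0 over all its peaks. In replicate 2 this density was 16.0 (quartiles 10.0 and 31), beside 9.0 over all its peaks. The genome average was 6.51. Pooled GC content was 49.4% in the replicate 1 domains against 46.8% in all its peaks, and 58.2% against 52.0% in replicate 2. The observed over expected CpG ratio was 0.359 against 0.326 in replicate 1 but 0.389 against 0.424 in replicate 2. GC content and gene density were thus both higher for broad domains than for all peaks in each list, while the CpG ratio was higher in replicate 1 only. The part of base composition in tag recovery was not tested.

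They were spread unevenly over chromosomes. Replicate 1 had most on chromosomes 3 (60), 1 (49), 12 (47) and 6 (38), and none on 22 or Y. On chromosome 19, which has the most coding genes per Mb, 11.2% of its peaks were broad. Replicate 2 had most on chromosomes 19 (365, which is 6.17 per Mb), 7 (284), 3 (161), 1 (160), 4 (150), 16 (148) and 17 (142), and 1 on chromosome 13, where replicate 1 had 21. Chromosome 12 held 28 in replicate 2.

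Certain 5 Mb windows held many of them. In replicate 1, the windows from 40 to 45 and from 45 to 50 Mb of chromosome 12 held 18 and 19 broad domains, including SCAF11, ARID2 and SLC38A1. In the second of these all peaks had a median of 62.2 tags per kb, beside 45.3 over the list. From 195 to 200 Mb of chromosome 3 there were 16 (all peaks 51.1) and from 35 to 40 Mb of chromosome 6 there were 13 (48.7). In replicate 2 the fullest were the first 5 Mb of chromosomes 7 (159), 19 (123) and 4 (105), the stretch from 85 to 90 Mb of chromosome 16 (95) and the first 5 Mb of chromosome 1 (70). In these 5 windows the median over all peaks was 27.6 to 32.1 tags per kb, beside 28.2 over the list.

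Chromosome ends carried a large part of the replicate 2 domains. Within 5 Mb of an end lay 937 of 1945 (48.2%, interval 46.0 to 50.4), beside 16.7% of all its peaks, 12.5% of coding genes and 7.75% of the genome. In replicate 1 it was 75 of 456 (16.4%, 13.3 to 20.1), beside 7.99% of all its peaks. Within 10 Mb it was 62.2% in replicate 2 and 31.1% in replicate 1. Neighbours were close in replicate 2, where 1582 domains (81.3%) had another within 100 kb and the median gap was 9.16 kb. In replicate 1, 205 (45.0%) did, with a median gap of 150 kb. Gaps shrink as more domains are counted (1945 beside 456), and spacing at equal counts was not tested.

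**Figure D5:**
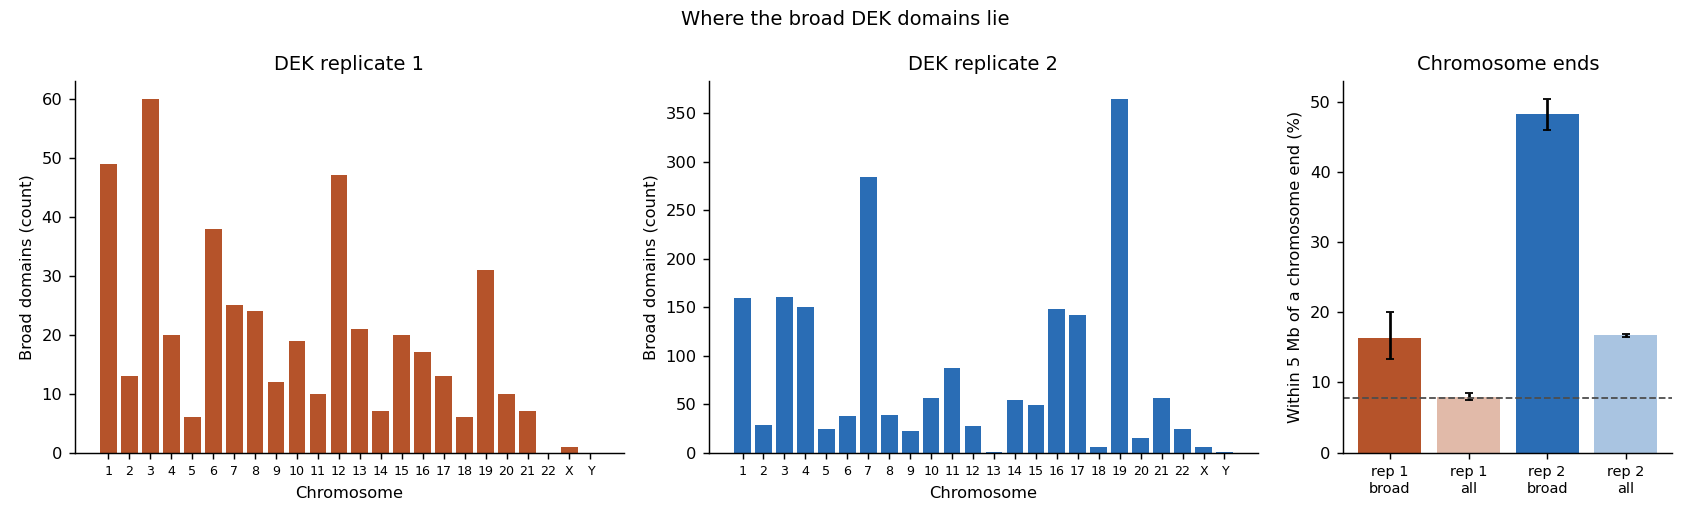
Count of broad domains on each chromosome in DEK replicate 1 and DEK replicate 2 (scales differ), and percent within 5 Mb of a chromosome end for broad domains and all peaks of each list with 95% Wilson intervals; the dashed line is the genome's 7.75%. The count is highest on chromosome 3 in replicate 1 (60) and on chromosome 19 in replicate 2 (365), and the broad domains of replicate 2 reach 48.2% near the ends.

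Gaps between called peaks set part of the count in replicate 2. There 414 domains lay within 1 kb of another, and when peaks within 500 bp were merged the count of at least 3000 bp was 4346 in place of 1968. In replicate 1, 19 lay within 1 kb of another. A broad domain is thus a unit of the peak caller, and its ends are where the caller placed them.

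Repeated sequence was counted as the share of 31-mers that occur elsewhere in the reference on either strand. At least 50% were repeated in 43 of 456 replicate 1 domains (9.43%, interval 7.08 to 12.5), beside 6.30% of all its peaks. In replicate 2 it was 188 of 1945 (9.67%, 8.43 to 11.1), beside 20.8% of all its peaks. These domains had a median of 64.6 tags per kb in replicate 1, where the others had 62.5, and 46.3 in replicate 2, where the others had 36.4. In replicate 1 they made up 5.65% of the class of 3 to 4 kb and 16.4% of that of 4 to 5 kb.

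The summit windows of the domains, like those printed above, were searched for 4 short motifs on both strands, as a description of letters. GAGGAA, the core of sites for the ETS factor PU.1, was found in 27.9% of replicate 1 windows (interval 23.9 to 32.1) beside 21.0% of windows of all its peaks, and in 10.7% (9.40 to 12.1) beside 6.75% in replicate 2. GGGCGG, the GC box, was in 10.1% beside 7.07% and in 15.8% beside 12.6%. CACGTG, an E box, was in 1.97% beside 2.73% and in 5.04% beside 2.88%. TGTGGT, the core bound by RUNX factors, was in 19.1% beside 19.5% and in 9.87% beside 11.4%. The median window held 3 CpGs in replicate 1 and 6.0 in replicate 2. No motif or its reverse complement is contained in another, although matches of different motifs may overlap in a window.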

How the data were processed

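Chromatin of U937 cells was precipitated with antibodies to DEK (2 samples) and H3K4me3 (2 samples), sequenced and aligned by the authors to hg19 with Bowtie2, and DEK peaks were called in each precipitation with MACS 1.4.1 against input chromatin. For each peak the deposited DEK lists give the raw tag count, a score (the negative log10 of the p-value multiplied by 10, from 50.0 to 3100), the fold enrichment over the local background as a ratio and the false discovery rate in percent, all as the authors' caller wrote them. The H3K4me3 lists hold positions only, and their caller's settings are not given in the sources used here.

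Peaks of at least 3000 bp were taken from each DEK list. The members and the gene lists were chosen with earlier results of these data known, so counts over them are a description. Overlap needed 1 shared base, and H3K4me3 was the intersection of both its lists. A TSS was the start of any transcript of GENCODE release 44 lifted to GRCh37, and gene density was the number of coding gene 5′ ends in a window of 1000 kb around the middle of the domain. Gene and sequence measures used chromosomes 1 to 22, X and Y. Genes were named at the 10 longest domains, the 10 with the most and 5 with the fewest tags per kb, the 5 with the most coding starts, the 20 longest shared intervals and the gene lists. Some genes that this rule selects are not reported here.

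Shares have 95% Wilson intervals. No test was made, because each list is 1 precipitation and its peaks are not replicates. The methods state a minimum number of reads per sample and the lists hold no totals, so the depth of each library is not known here. Numba 0.67.0 counted the 31-mers, pandas 2.3.3 and NumPy 2.4.6 handled the intervals, Matplotlib 3.10.9 drew the plots and SciPy 1.17.1 gave rank correlations, all under Python 3.11.15, and the overlap, interval and 31-mer code was tested on simulated data. Other length minima, scores, overlap rules, merging and H3K4me3 lists were tried.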

Additional observations from a re-analysis of the deposited data

How the results depend on the processing

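The lists hold no control peaks or read totals, so the limits are those of 1 peak caller run per list: domain ends are its ends, the false discovery rate of replicate 1 was 100%, and how reads were placed in repeated sequence was not tested. Across 13 results, 92 alternative values were computed. Of these, 54 lay within the 95% interval of the main share or median or, for counts, within a factor of 1.5. The other 38 lay outside. The results are single counts, shares and medians, so a change of direction was not defined for them.

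With a length minimum of 2500, 4000 or 5000 bp, the number of broad domains was 779, 180 or 67 in replicate 1 and 3369, 843 or 410 in replicate 2, and 134, 27 or 7 intervals were broad in both. Those minima gave medians of 35.7, 39.1 and 39.9 tags per kb in replicate 2. At 2500 and 4000 bp the share met by the other list was 58.9% and 71.7% in replicate 1, and the share with a TSS was 45.6% and 53.6% in replicate 2, where H3K4me3 at 4000 bp was 19.1%. Keeping peaks with a score of at least 100 left 264 broad domains in replicate 1 and 39 shared intervals, with 65.7 tags per kb and 65.5% at H3K4me3 in replicate 1 and 40.5% and 3.38% met by the other list in replicates 1 and 2. Merging peaks within 500 bp gave 4346 domains with 31.1 tags per kb in replicate 2. Requiring that at least 50% of the domain be covered gave 32.4% and 4.88% met.

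Only TSSs of coding genes gave 23% and 38.6%, and TSSs within 1000 bp of the ends gave 41.9% and 57.4%. Leaving out either H3K4me3 list gave 60.1% to 77.0% of replicate 1 domains and 22.2% to 31.2% of replicate 2 domains with H3K4me3. Gene density was 31 and 43.0 over all annotated genes, and 20 per Mb in a 200 kb window in replicate 2. Leaving out mostly repeated domains and leaving out chromosome 3 or 19 were chosen after seeing the data. They moved the median to 36.4 tags per kb without repeated domains and the gene density to 14 without chromosome 19, both in replicate 2. No paired analysis was possible because no groups were compared by a test and each DEK list is 1 sample.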
